A study of Homo sapiens with 4 samples.

Results

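The transcripts of 51 cytosolic and mitochondrial chaperone genes were examined after knockdown of JARID2 in MDA-MB-231, a line established from a human breast cancer. The genes were chosen by symbol, and all 51 were found, in 52 rows of the 25133 rows that carry a gene symbol. HSPA14 has 2 rows, from 2 overlapping annotated loci. RNA was sequenced from 2 libraries of cells infected with a short hairpin RNA against JARID2 (shJARID2, genotype labelled JARID2 knockdown) and from 2 libraries of cells infected with a control hairpin (shSCR, genotype labelled WT). Both groups received a hairpin with Polybrene, so neither is an untreated culture, and the label WT does not mean uninfected. Nothing in the labels tells whether replicate libraries were made from separate cultures, and the p-values then measure only the spread between these libraries, which may be technical. Hairpin sequences and the time after infection were not used here.

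Chaperones bind unfolded or partly folded proteins and let them reach their native state. Members of the HSP70 family work with HSP40 (J-domain) proteins, which stimulate their ATPase, and with nucleotide exchange factors such as the BAG and HSP110 proteins. HSP90 completes the folding of client proteins such as kinases and steroid receptors, helped by co-chaperones, and the chaperonins enclose proteins in a barrel. Heat shock factor 1, encoded by HSF1, drives many of these genes through heat shock elements, which are inverted repeats of GAA, and cancer cells often rely on it.

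JARID2 itself, the targeted gene, measured 3.88 and 3.91 FPKM in shJARID2 and 10.8 and 10.8 FPKM in shSCR. FPKM count fragments relative to gene length and to the reads of the library. The length here matched that of all annotated exons of a gene joined, such as 14981 bases for DNAJB6. It can exceed that of the transcript made, so levels of different genes compare only roughly. The library depths read from the FPKM steps ran from about 12800000 to 16200000 reads. The log2 fold change of JARID2 was -1.27 (SE 0.059, adjusted p = 0.0014). Fold changes here are of log2(FPKM + 1), shJARID2 minus shSCR, and so come out too small for low genes. They were tested with limma over 12455 rows with a mean of at least 1 FPKM, with Benjamini-Hochberg adjustment, and a row was called at an adjusted p below 0.05. Of the MDA-MB-231 markers, CD44, CAV1 and AXL lay between 68.9 and 417 FPKM, and ESR1, PGR, ERBB3, GATA3 and CDH1 were at most 0.560. VIM, which should be abundant in these cells, was only 2.10 to 4.20 FPKM, so a low value in these files need not mean low expression. Markers of other cell types (PTPRC, COL1A1 and PECAM1) were at most 0.837 FPKM.

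Heat shock element letters were looked for in RefSeq promoter windows (GRCh38.p14, 250 bases before to 50 after a start) because HSF1 and several of the genes it is known to drive were lower in shJARID2. The 3-unit form GAANNTTCNNGAA or its reverse complement TTCNNGAANNTTC was found in 172 of 35116 windows (0.49%). Among the 43 chaperone genes with a window (58 windows), 6 held it, in 6 windows: HSP90AA1, HSP90AB1, HSPA8, HSPD1, DNAJB6 and DNAJA1. The shorter 2-unit forms GAANNTTC and TTCNNGAA, which lie inside the 3-unit form, were in 13.5% of all windows. They were in 19 of the 58 chaperone windows, which belong to 18 genes. The stretches below show 15 bases on either side of the matches, cut at the window's end, 5′ to 3′ on the gene's strand. Capitals mark the 3-unit form in the first 5 and the 2-unit form in the last 3, and positions count back from the start, with -1 the base before it.
HSP90AA1 (chr14:102087105-102087147, - strand, from -103 to -61): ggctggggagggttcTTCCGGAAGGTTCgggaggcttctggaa
HSP90AB1 (chr6:44247763-44247858, + strand, from -180 to -85): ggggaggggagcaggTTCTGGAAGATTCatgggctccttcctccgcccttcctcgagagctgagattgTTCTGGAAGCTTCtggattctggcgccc
HSPA8 (chr11:123062164-123062381, - strand, from -245 to -28): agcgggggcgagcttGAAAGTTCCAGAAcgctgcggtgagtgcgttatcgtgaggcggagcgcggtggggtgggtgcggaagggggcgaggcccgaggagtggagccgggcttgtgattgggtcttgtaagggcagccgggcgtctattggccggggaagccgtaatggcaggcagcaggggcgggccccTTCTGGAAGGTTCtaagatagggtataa
HSPD1 (chr2:197500053-197500090, - strand, from -250 to -213): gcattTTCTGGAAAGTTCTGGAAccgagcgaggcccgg
DNAJB6 (chr7:157336858-157336900, + strand, from -146 to -104): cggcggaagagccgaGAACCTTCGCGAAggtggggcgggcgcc
HSPA1B (chr6:31827618-31827655, + strand, from -120 to -83): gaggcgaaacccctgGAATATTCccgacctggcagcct
DNAJB4 (chr1:78004826-78004863, + strand, from -113 to -76): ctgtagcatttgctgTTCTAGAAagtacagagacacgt
DNAJB1 (chr19:14518422-14518489, - strand, from -92 to -25): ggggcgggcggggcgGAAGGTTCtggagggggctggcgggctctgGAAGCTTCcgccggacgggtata
Of the genes with the 3-unit form, HSP90AA1, HSPA8 and DNAJB6 fell, and none was called higher. Over all rows tested 31.6% were called lower and 28.0% higher, and among the 46 tested chaperone rows 54.3% and 21.7%. HSP90AB1 and HSPD1 did not pass the test as measured, HSPD1 was called lower after GC correction (-0.18), and DNAJA1 was not tested. HSPA8, HSP90AB1 and HSPD1 hold 2 matches each, and those of HSPD1 overlap. These are few genes, and no test was run on them as a set. Tested genes with the 2-unit form alone went in both directions or did not pass. DNAJB4 carries a 2-unit match and rose, whereas HSPA1B and DNAJB1, also with 2-unit matches, fell. A match is a description of the letters and says nothing about binding.

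Chaperone transcripts were more often lower than higher in shJARID2. Of 46 tested rows, which stand for 45 genes, 25 fell and 10 rose, and 11 did not pass. Over all 12455 rows tested, 59.7% were called, 31.6% lower and 28.0% higher, and among the chaperone rows the shares were 54.3% and 21.7%. The median log2 fold change was -0.44 over the chaperone rows and -0.018 over all rows. The groups did not overlap in 43 of the 46 rows, 30 lower and 13 higher, against 82.9% of all rows (43.1% lower and 39.8% higher). A fall of 2-fold or more was fitted for 8 chaperone rows and a rise of 2-fold or more for 1, against 6.2% and 2.83% of all rows. Summed over the 52 rows, chaperone transcripts made up 0.873% and 0.878% of all FPKM in the shJARID2 libraries and 1.15% and 1.17% in the shSCR libraries. In these bulk samples, fewer cells of a kind and less RNA per cell cannot be told apart. Without shSCR replicate 2, the chaperone rows called higher numbered 5 and those called lower 22, and over all rows 2168 were higher and 2462 lower.

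**Figure D1:**
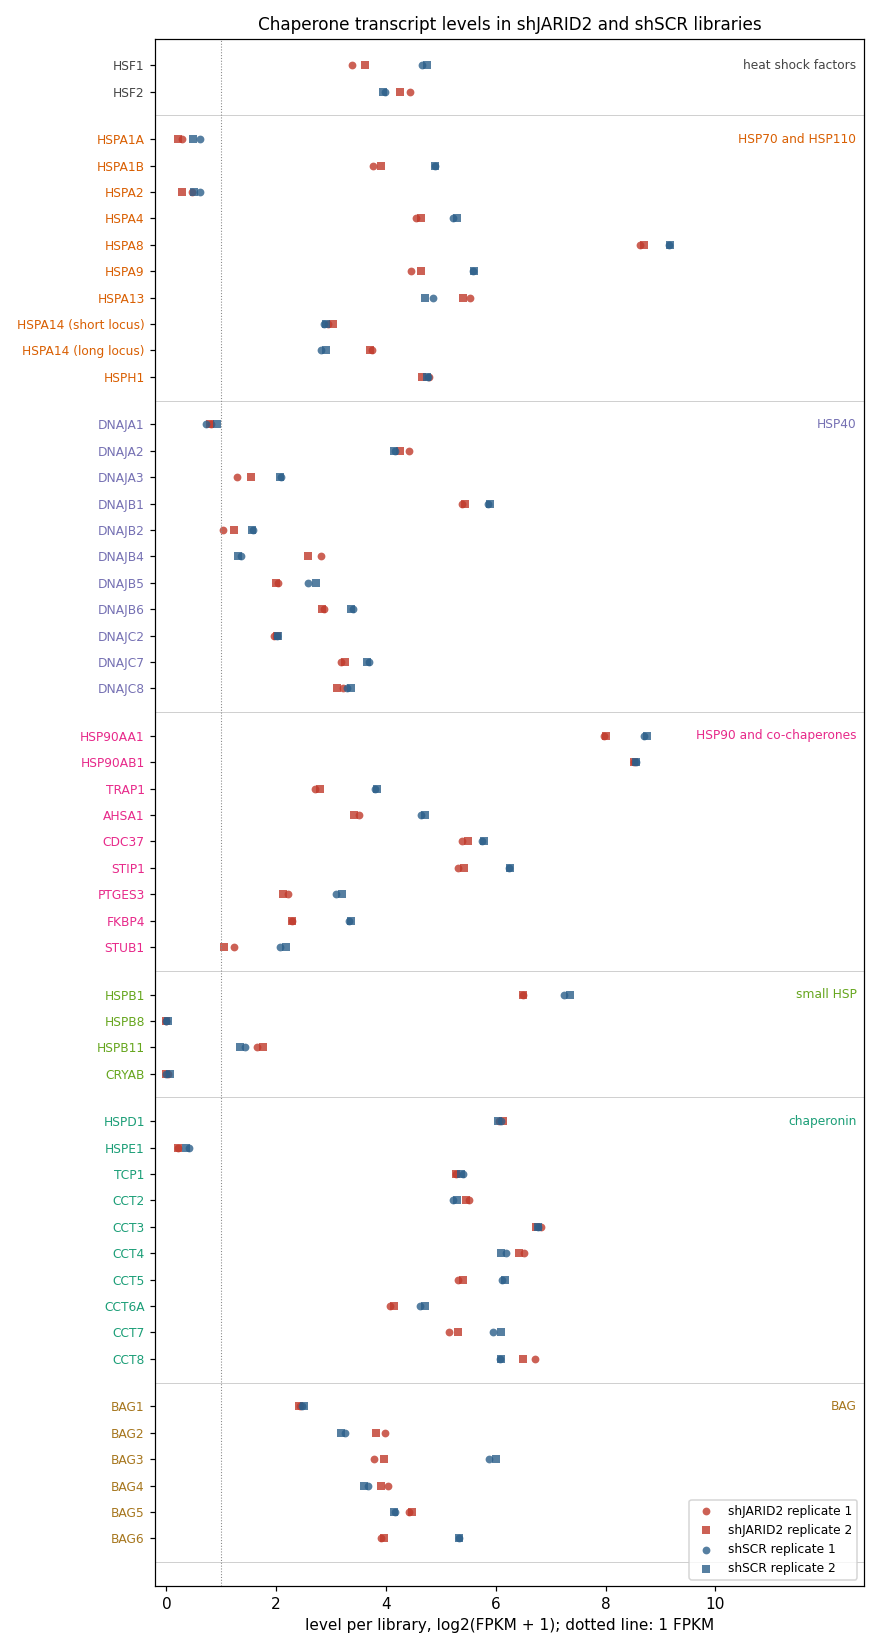
Level of each chaperone transcript, log2(FPKM + 1), in the 2 shJARID2 (red) and 2 shSCR (blue) libraries, with circles for replicate 1 and squares for replicate 2 and the genes grouped by family. BAG3 sits at 12.8 and 14.7 FPKM in shJARID2 and at 57.7 and 63.1 in shSCR, whereas the points of HSP90AB1 and HSPD1 nearly coincide, and 6 genes lie left of the dotted line at 1 FPKM.

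Fold changes in these libraries followed the GC content of transcripts, which was measured as the median over the transcripts of a gene. Across 10509 protein-coding rows Spearman's rho between GC content and log2 fold change was -0.72, and across the 46 chaperone rows it was -0.66. These are correlations across genes, which are not independent replicates and share the same libraries. The chaperone rows called higher had a median GC content of 41.1%, and those called lower one of 52.7%. A value with the trend removed from each library is therefore given beside each measured one and called GC-corrected. After the correction 24 chaperone rows were called lower and 6 higher, against 20.2% lower and 21.7% higher among all 12438 rows (41.9% in either direction), and the median was -0.30 against 0.0041. Of the 25 falls 19 remained, and of the 10 rises 5 remained. The call of CDC37 turned round, and 5 rows that had not passed (HSPH1, DNAJC2, DNAJC8, HSPD1 and TCP1) were called lower.

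**Figure D2:**
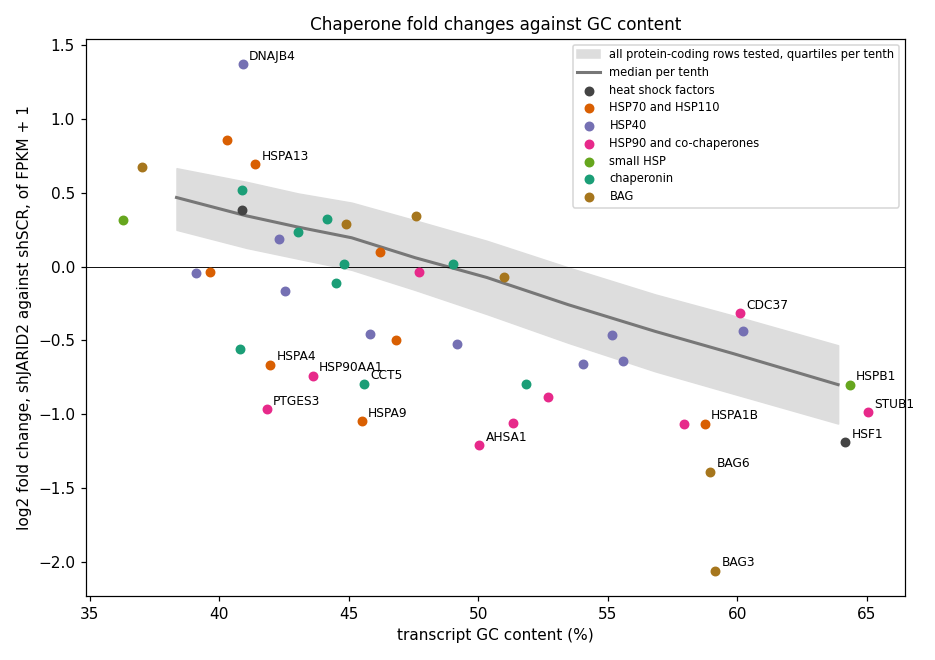
Log2 fold change (shJARID2 against shSCR, of FPKM + 1) of each tested chaperone row against its transcript GC content in percent, coloured by family. The grey line and band are the median and quartiles of all protein-coding rows in bins of GC content, from 0.47 at a median GC content of 38.3% to -0.80 at 63.9%, and BAG3, PTGES3, HSPA9 and AHSA1 lie far below the band while DNAJB4 lies above it.

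The heat shock factors moved in opposite directions. HSF1, the main activator of the heat shock response, measured 9.43 and 11.3 FPKM in shJARID2 and 24.1 and 25.8 FPKM in shSCR, which corresponded to 648 and 771 reads against 1983 and 2214. The groups did not overlap, and the level in shJARID2 was 0.416 of that in shSCR, with a fall of -1.19 on the log2 scale (SE 0.099, adjusted p = 0.0018). HSF1 transcripts have a GC content of 64.2%, and the GC-corrected value was -0.40 (adjusted p = 0.013). HSF2, which binds the same elements and can form mixed trimers with HSF1, was at 20.5 and 18.0 FPKM in shJARID2 and 14.7 and 14.4 FPKM in shSCR. Its rise was 0.38 (SE 0.076, adjusted p = 0.014) and did not pass after GC correction (0.079). It also lost its call without shSCR replicate 1 (0.40) and without shSCR replicate 2 (0.36). The ratio of HSF1 to HSF2 was 0.459 and 0.629 in the shJARID2 libraries and 1.64 and 1.79 in the shSCR libraries. It is of measured levels, with the GC trend left in, and HSF2 transcripts have a GC content of only 40.9%.

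In the HSP70 and HSP110 family 4 of 8 tested rows fell and 2 rose, against 31.6% and 28.0% of all rows, so that the share that rose was near that of all rows. After GC correction 5 were lower and 2 higher, against 20.2% and 21.7% of all rows. HSPA8, the constitutive cytosolic HSP70 and the most abundant chaperone transcript, was at 394 and 415 FPKM in shJARID2 and 566 and 577 FPKM in shSCR. It fell by 0.50 on the log2 scale (SE 0.050, adjusted p = 0.0024, GC-corrected -0.63), and with 17 annotated pseudogene copies its reads may have been shared, so the call is uncertain. HSPA9, the mitochondrial HSP70 (mortalin), was at 20.8 and 23.9 FPKM in shJARID2 and 46.7 and 47.7 FPKM in shSCR. Both shJARID2 libraries lay far below both shSCR libraries, and the change was -1.05 (SE 0.076, adjusted p = 0.0015, GC-corrected -1.23). HSPA4, an HSP110-type exchange factor, was at 22.4 and 23.9 FPKM in shJARID2 and 36.3 and 38.3 FPKM in shSCR (-0.67, GC-corrected -0.97).

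HSPA1B, a stress-inducible HSP70, was at 12.5 and 14.0 FPKM in shJARID2 and 28.7 and 28.8 FPKM in shSCR. Its fall of -1.06 (SE 0.066, adjusted p = 0.0014, GC-corrected -0.53) held under every alternative run. It remains uncertain, because 36.5% of its exon bases are shared with exons of another annotated gene and because its near-identical copy HSPA1A was at 0.218 and 0.157 FPKM in shJARID2 and 0.520 and 0.398 FPKM in shSCR. HSPA1A, at 7 and 5 reads against 20 and 16, was below the filter and not tested. HSPA2, a form best known from the testis, was also below the filter, between 0.216 and 0.536 FPKM.

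HSPA13, an atypical HSP70 of the microsomes, rose, with 45.3 and 41.5 FPKM in shJARID2 and 27.8 and 25.1 FPKM in shSCR (0.69, SE 0.074, adjusted p = 0.0027, GC-corrected 0.40). HSPA14, a ribosome-associated HSP70, differed between its 2 annotated loci, which begin at nearly the same place on chromosome 10. The longer locus, spanning 33578 bases, was at 12.4 and 12.0 FPKM in shJARID2 and 6.03 and 6.54 FPKM in shSCR, a rise of 0.86 (adjusted p = 0.0016, GC-corrected 0.54). The shorter locus, spanning 8859 bases, was at 6.70 and 7.17 FPKM in shJARID2 and 6.32 and 6.52 FPKM in shSCR and did not pass (0.096, adjusted p = 0.28). The exons of the longer locus overlap those of other genes over 17.4% of their bases, so its call is uncertain. HSPH1, an HSP110 exchange factor, overlapped between groups, at 26.4 and 24.2 FPKM in shJARID2 and 26.1 and 25.9 FPKM in shSCR (-0.039, adjusted p = 0.59). The GC-corrected value of HSPH1 was -0.38 and passed.

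Among the HSP40 proteins 6 of 10 tested rows fell and 1 rose, against 31.6% and 28.0% of all rows. After GC correction 5 were lower and 1 higher, against 20.2% and 21.7% of all rows. DNAJB4, a cytosolic partner of HSP70, had the largest rise of all chaperone rows, with 6.06 and 4.98 FPKM in shJARID2 and 1.57 and 1.45 FPKM in shSCR. The mean was 3.65 times as high, the rise on the log2 scale was 1.37 (SE 0.12, adjusted p = 0.0018, GC-corrected 1.07), and the value ran from 1.25 to 1.49 when each library was left out. DNAJB1, the major stress-inducible HSP40, went the other way, with 41.0 and 42.3 FPKM in shJARID2 and 57.0 and 58.6 FPKM in shSCR (-0.46, SE 0.043, adjusted p = 0.0020). Its GC-corrected value was -0.13 and was called. The ratio of DNAJB1 to DNAJB4 was 6.76 and 8.49 in shJARID2 and 36.3 and 40.3 in shSCR. It is of measured levels, with the GC trend left in, and the GC contents are 55.1% for DNAJB1 and 40.9% for DNAJB4.

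DNAJA3, the mitochondrial HSP40, was at 1.44 and 1.92 FPKM in shJARID2 and 3.25 and 3.21 FPKM in shSCR (-0.66, SE 0.13, adjusted p = 0.012). Its call ended after GC correction (-0.39) and without shSCR replicate 1 (-0.66) or shSCR replicate 2 (-0.67). DNAJB5 was at 3.067 and 2.996 FPKM in shJARID2 and 4.95 and 5.61 FPKM in shSCR (-0.64, GC-corrected -0.28, not passed after correction). DNAJB6, a suppressor of protein aggregation, was at 6.36 and 6.17 FPKM in shJARID2 and 9.57 and 9.35 FPKM in shSCR, with nearly the same change before and after correction (-0.53 and -0.51). DNAJC7, which binds both HSP70 and HSP90, fell by 0.46 on the log2 scale (GC-corrected -0.62).

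DNAJB2 was low, at 1.04 and 1.35 FPKM in shJARID2 and 1.97 and 1.94 FPKM in shSCR, and its fall was the least secure of those called (-0.43, adjusted p = 0.042). It was lost without shJARID2 replicate 1 (-0.33), without shSCR replicate 1 (-0.43), without shSCR replicate 2 (-0.44), with a pseudocount of 0.1 FPKM (-0.68), with no filter on low values (-0.43), and after GC correction (0.18), and held in 5 of 13 alternatives. DNAJA2 (0.18), DNAJC2 (-0.046) and DNAJC8 (-0.16) did not pass as measured. DNAJA2 passed without shJARID2 replicate 2 (0.26). DNAJA1, a widely expressed HSP40 with 6 annotated pseudogene copies, was listed at 0.764 and 0.744 FPKM in shJARID2 and 0.638 and 0.905 FPKM in shSCR, below the filter, from 26 to 40 reads per library.

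The BAG proteins are exchange factors that release substrates from HSP70. Of their 6 rows 3 rose and 2 fell, against 28.0% and 31.6% of all rows, so that the share that fell was near that of all rows. After GC correction 2 were higher and 2 lower, against 21.7% and 20.2% of all rows. BAG3, which is induced by stress and directs HSP70 clients to autophagy, showed the deepest fall of all chaperone rows. It was at 12.8 and 14.7 FPKM in shJARID2 and 57.7 and 63.1 FPKM in shSCR, 4.40-fold lower in shJARID2, and these levels rest on 454 and 517 reads against 2455 and 2805. BAG3 thus changed by -2.06 on the log2 scale (SE 0.087, adjusted p = 0.0014, GC-corrected -1.50), and its rank from the lowest was 31 of 12455 rows. BAG6, which handles mislocalised membrane proteins, was at 14.1 and 14.6 FPKM in shJARID2 and 39.1 and 39.4 FPKM in shSCR (-1.39, SE 0.044, adjusted p = 0.0014, GC-corrected -0.84). Both falls held under every alternative run.

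BAG2, an inhibitor of the ubiquitin ligase STUB1, rose, with 14.8 and 13.0 FPKM in shJARID2 and 8.58 and 8.10 FPKM in shSCR (0.68, SE 0.081, adjusted p = 0.0035, GC-corrected 0.24). BAG2 shares 44.2% of its exonic sequence with a neighbour, so its call is uncertain. BAG4 was at 15.5 and 14.0 FPKM in shJARID2 and 11.7 and 11.2 FPKM in shSCR (0.34, GC-corrected 0.26), and lost its call without shSCR replicate 1 (0.37) or shSCR replicate 2 (0.31). BAG5 was at 20.5 and 21.1 FPKM in shJARID2 and 16.9 and 16.8 FPKM in shSCR (0.29), and lost its call without shSCR replicate 2 (0.28) and after GC correction (0.095). BAG1, a further exchange factor of HSP70, did not pass (-0.072, adjusted p = 0.42). The ratio of BAG3 to BAG2 was 0.861 and 1.13 in the shJARID2 libraries and 6.72 and 7.79 in the shSCR libraries. It is of measured levels, with the GC trend left in, and the GC contents are 59.1% for BAG3 and 37.0% for BAG2.

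**Figure D3:**
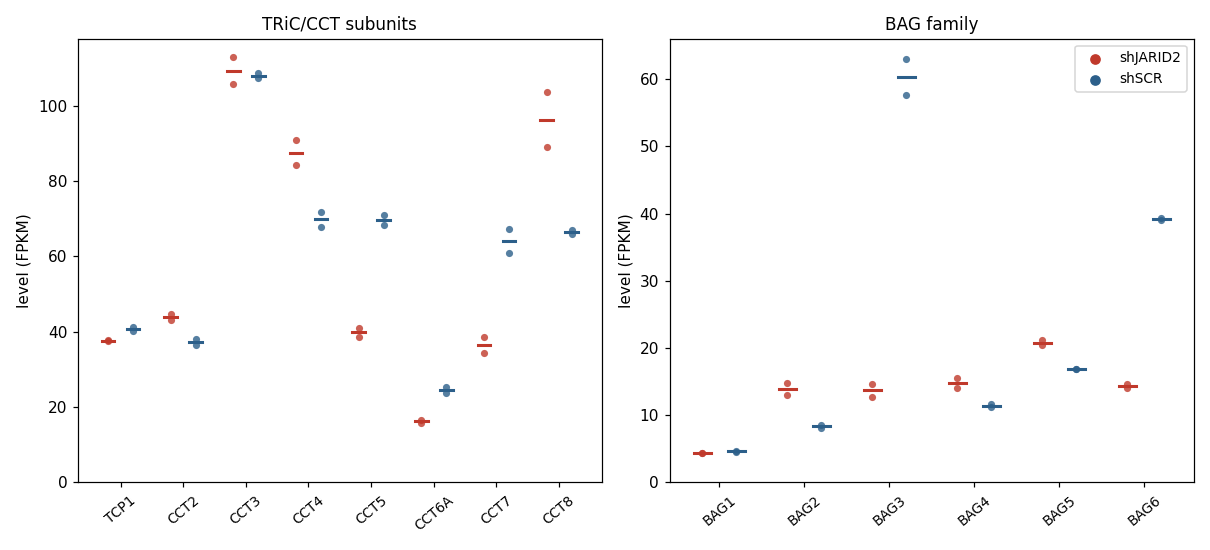
FPKM of the 8 subunits of the TRiC/CCT chaperonin (left) and of the 6 BAG genes (right), with shJARID2 in red left of shSCR in blue, a point for each library and a bar for the mean of 2. CCT4 and CCT8 are higher and CCT5, CCT6A and CCT7 lower in shJARID2, BAG3 and BAG6 are lower, and BAG2, BAG4 and BAG5 are higher.

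The HSP90 system fell almost throughout, with 8 of 9 tested rows lower and none higher, against 31.6% of all rows called lower. After GC correction 6 were lower and 1 higher, against 20.2% and 21.7% of all rows. The exception as measured was HSP90AB1, the constitutive cytosolic HSP90, which was at 367 and 364 FPKM in shJARID2 and 373 and 377 FPKM in shSCR. Its change of -0.037 (SE 0.041, adjusted p = 0.47) did not pass under any alternative run. HSP90AA1, the stress-inducible form, was at 249 and 255 FPKM in shJARID2 and 414 and 429 FPKM in shSCR, a fall of 0.74 on the log2 scale (SE 0.045, adjusted p = 0.0014, GC-corrected -0.98). The ratio of HSP90AA1 to HSP90AB1 was 0.677 and 0.700 in shJARID2 and 1.11 and 1.14 in shSCR. Which form was the higher depends on the exon lengths used, 5248 bases for HSP90AA1 and 2980 for HSP90AB1. In reads HSP90AA1 was the higher in every library, with 16889 and 17138 against 14163 and 13903 in shJARID2. TRAP1, the mitochondrial HSP90, was at 5.50 and 5.98 FPKM in shJARID2 and 12.9 and 13.3 FPKM in shSCR (-1.07, GC-corrected -0.57). TRAP1 shares 29.3% of its exonic sequence with a neighbour, so its call is uncertain.

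All 6 HSP90 co-chaperones tested fell as measured, against 31.6% of all rows. After GC correction 4 were lower and 1 higher, against 20.2% and 21.7% of all rows. AHSA1, which stimulates the HSP90 ATPase, was at 10.3 and 9.72 FPKM in shJARID2 and 24.0 and 25.1 FPKM in shSCR, and its change was nearly the same before and after correction (-1.21, SE 0.057, adjusted p = 0.0014, GC-corrected -1.15). FKBP4, an immunophilin of steroid receptor complexes, was at 3.86 and 3.91 FPKM in shJARID2 and 9.06 and 9.28 FPKM in shSCR (-1.06, GC-corrected -0.93), and 11.4% of its exonic sequence overlaps a neighbour. PTGES3, the p23 co-chaperone, was at 3.66 and 3.35 FPKM in shJARID2 and 7.48 and 8.16 FPKM in shSCR (-0.97, GC-corrected -1.27). STIP1, which links HSP70 to HSP90, was at 38.5 and 42.0 FPKM in shJARID2 and 74.8 and 75.4 FPKM in shSCR (-0.88, GC-corrected -0.68).

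STUB1 and CDC37 depended on the GC correction. STUB1, the ubiquitin ligase CHIP, was at 1.33 and 1.08 FPKM in shJARID2 and 3.20 and 3.55 FPKM in shSCR (-0.99, SE 0.12, adjusted p = 0.0034). With a GC content of 65.0% its GC-corrected value was -0.17 and did not pass, and 42.4% of its exonic sequence overlaps a neighbour. CDC37, which brings kinases to HSP90, was at 41.0 and 44.2 FPKM in shJARID2 and 52.8 and 53.9 FPKM in shSCR (-0.32, adjusted p = 0.0083). CDC37 was called higher after GC correction (0.29, adjusted p = 0.0057), and its measured fall was not called without shSCR replicate 2 (-0.30).

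**Figure D4:**
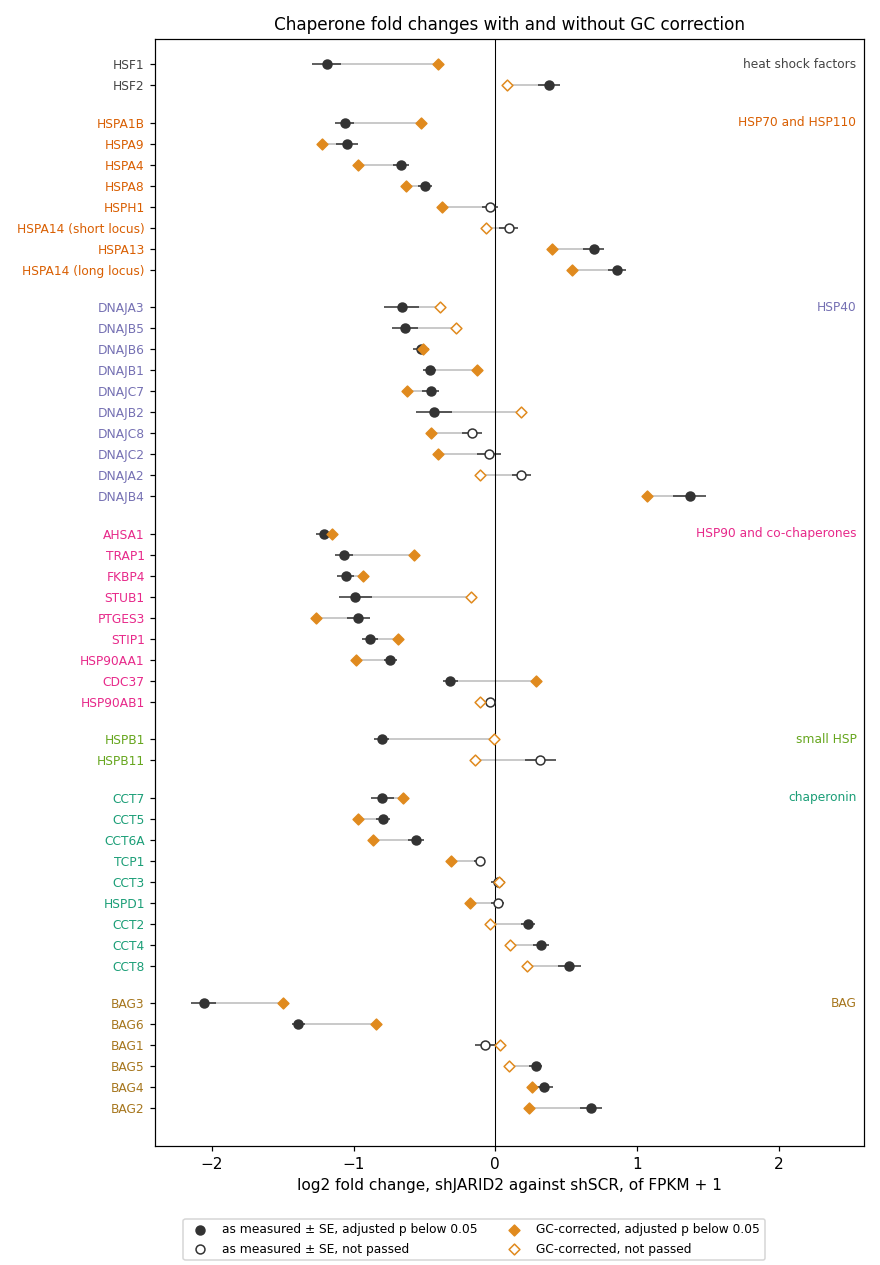
Log2 fold changes (shJARID2 against shSCR, of FPKM + 1) of the 46 tested chaperone rows by family, as measured with SE (circles) and GC-corrected (diamonds), filled where the adjusted p is below 0.05. In the HSP90 family AHSA1, FKBP4, PTGES3, STIP1, HSP90AA1 and TRAP1 are called lower under both, while STUB1 moves to -0.17 and CDC37 crosses 0, and in the small HSP family HSPB1 moves to -0.0075.

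The TRiC/CCT chaperonin is a double ring built of 8 different subunits that folds actin and tubulin. Of the 8 subunit rows 3 fell and 3 rose (37.5% each), near the 31.6% and 28.0% of all rows. After GC correction 4 were lower and 0 higher, against 20.2% and 21.7% of all rows. CCT5 was at 38.5 and 41.1 FPKM in shJARID2 and 68.4 and 71.1 FPKM in shSCR (-0.79, SE 0.052, adjusted p = 0.0014, GC-corrected -0.97). CCT7 was at 34.4 and 38.5 FPKM in shJARID2 and 61.02 and 67.27 FPKM in shSCR (-0.80, SE 0.080, adjusted p = 0.0024, GC-corrected -0.65). CCT6A was at 15.9 and 16.6 FPKM in shJARID2 and 23.6 and 25.3 FPKM in shSCR (-0.56, GC-corrected -0.86). These 3 falls held under every alternative run, although 30.1% of the exon bases of CCT5 are shared with another gene, which makes that call uncertain.

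CCT8, in contrast, was at 104 and 89.1 FPKM in shJARID2 and 66.1 and 67.1 FPKM in shSCR (0.52, SE 0.082, adjusted p = 0.0071). CCT4 was at 90.9 and 84.4 FPKM in shJARID2 and 71.9 and 67.8 FPKM in shSCR (0.32, adjusted p = 0.011), and 12.6% of its exonic sequence overlaps a neighbour. CCT2 was at 44.8 and 43.0 FPKM in shJARID2 and 36.4 and 38.1 FPKM in shSCR (0.23, adjusted p = 0.016). None of the 3 rises passed after GC correction, with 0.22 for CCT8, 0.11 for CCT4 and -0.039 for CCT2. CCT4 also lost its call without shSCR replicate 2 (0.28), and CCT2 without shJARID2 replicate 1 (0.20), shSCR replicate 1 (0.20) or shSCR replicate 2 (0.26). TCP1 (-0.11, adjusted p = 0.071) and CCT3 (0.017, adjusted p = 0.79) did not pass, and TCP1 was called lower after GC correction (-0.31). That call is uncertain, because 11.1% of the exonic sequence of TCP1 overlaps other genes.

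The spread among the 8 subunits was wider in both shJARID2 libraries than in either shSCR library. The highest subunit, CCT3, exceeded the lowest, CCT6A, by 7.11 and 6.36 times in the shJARID2 libraries and by 4.60 and 4.25 times in the shSCR libraries. The coefficient of variation over subunits was 61.4% and 55.3% in shJARID2 and 44.1% and 42.4% in shSCR. CCT8 was 2.69 and 2.17 times CCT5 in shJARID2 and 0.966 and 0.944 times CCT5 in shSCR. The summed level of the 8 subunits was close in all libraries, at 479 and 456 FPKM in shJARID2 and 477 and 484 FPKM in shSCR. No test was run on these ratios and sums, and with 2 libraries against 2 an exact permutation test could not pass. They are of measured FPKM, which depend on the exon lengths used, with the GC trend left in.

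The mitochondrial chaperonin showed no such change as measured. HSPD1, the HSP60 subunit, was at 65.5 and 68.7 FPKM in shJARID2 and 67.6 and 65.0 FPKM in shSCR, and the groups overlapped (0.017, adjusted p = 0.78). Its GC-corrected value was -0.18 and passed (adjusted p = 0.034), and HSPD1 has 17 annotated pseudogene copies, so that its level is uncertain. HSPE1, the HSP10 lid whose gene lies head to head with HSPD1, was listed at only 0.156 and 0.158 FPKM in shJARID2 and 0.326 and 0.281 FPKM in shSCR, and was not tested. HSPE1 has 26 annotated pseudogene copies, and its 4 to 10 reads per library are no measure of its expression. The other mitochondrial chaperones HSPA9, TRAP1 and DNAJA3 fell, so that the ratio of HSPD1 to HSPA9 was 3.15 and 2.88 in shJARID2 and 1.45 and 1.36 in shSCR.

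Of the 4 small heat shock proteins 2 were above the filter. HSPB1 (HSP27), which holds unfolded proteins and stabilises actin, was at 89.6 and 89.4 FPKM in shJARID2 and 151 and 163 FPKM in shSCR (-0.80, SE 0.053, adjusted p = 0.0014). HSPB1 transcripts have a GC content of 64.3%, and after GC correction the difference was -0.0075 (adjusted p = 0.91). HSPB11, named as a small heat shock protein but known as a subunit of the ciliary transport machinery, was at 2.12 and 2.39 FPKM in shJARID2 and 1.69 and 1.53 FPKM in shSCR and did not pass (0.32, adjusted p = 0.065). CRYAB and HSPB8, the partner of BAG3, were at or below 0.0407 FPKM in every library and were not tested.

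A further 79 genes of the folding machinery were listed as background, chiefly other J-domain proteins, HSP90 partners, prefoldin and mitochondrial proteases. Of these 76 were found and 60 tested, of which 22 rose (36.7%) and 19 fell (31.7%), with a median log2 fold change of 0.028. Over all rows tested 28.0% were higher and 31.6% lower, so the share that fell was that of all rows. After GC correction 12 were higher and 13 lower, against 21.7% and 20.2% of all rows. Without shSCR replicate 2, 14 were higher and 12 lower, and without shJARID2 replicate 1, 14 were higher and 16 lower. The chaperone genes described above and these 60 were not tested against each other.

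Prefoldin, which delivers actin and tubulin to TRiC/CCT, had 3 of its 6 subunits higher and none lower, against 28.0% and 31.6% of all rows. After GC correction 2 were higher and none lower, against 21.7% and 20.2% of all rows. PFDN4 was at 15.6 and 12.2 FPKM in shJARID2 and 4.999 and 5.662 FPKM in shSCR (1.23, SE 0.14, adjusted p = 0.0029, GC-corrected 0.93). LONP1, the mitochondrial matrix protease, was at 9.93 and 10.2 FPKM in shJARID2 and 25.5 and 26.6 FPKM in shSCR (-1.29, GC-corrected -0.59). HYOU1, an HSP110-type chaperone of the endoplasmic reticulum (-1.07, GC-corrected -0.71), DNAJC5, a J-domain protein of secretory vesicles (-1.06, GC-corrected -0.58), and PPP5C, a phosphatase bound to HSP90 (-0.87, GC-corrected -0.49), also fell under both measures. The falls of HSPBP1, an HSP70 exchange factor (-1.05, GC-corrected -0.22), and SGTA, a co-chaperone that works with BAG6 (-0.97, GC-corrected -0.41), were not called once the GC trend was removed, and SGTA lost its call without shSCR replicate 1 (-0.86). DNAJC25 rose (0.95, GC-corrected 0.66), and 13.8% of its exonic sequence overlaps a neighbour. HSBP1, which binds and inhibits HSF1 and was picked here with its values already known, was at 7.17 and 6.81 FPKM in shJARID2 and 3.64 and 3.77 FPKM in shSCR (0.76, GC-corrected 0.60).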

How the data were processed

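The deposited values are FPKM in 1 file per library, per the file headers, with 85553 rows each, of which 25133 carry a symbol. The submitters' processing notes name Trimmomatic, HISAT2, SAMtools and featureCounts. Their versions, the build, the annotation, strand use and the handling of reads with several matches were not given in the sources used here. Multiplied by exon lengths of GENCODE release 29 (GRCh38), 95.8% to 96.3% of values up to 20 reads lay within 0.05 of a whole number, which gave reads and depths. A test on counts had been planned if the files held counts. They hold FPKM, so log2(FPKM + 1) of rows with a mean of at least 1 FPKM was tested in limma 3.58.1 under R 4.3.3 (trended prior variance, group as the only term). For the GC correction, deviations from each row's mean were smoothed on GC content per library by loess of degree 2 and span 0.3, which was then subtracted. The steps were also run on simulated reads, and the outcome of that run is not used here. A row was treated as uncertain with at least 10% exonic overlap with other genes, or 6 or more pseudogene copies counted by symbol.

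The genes and lists were chosen with earlier results of these data known. By the naming rule, every chaperone gene may be named, and per-library values are given for the heat shock factors, for the most abundant and up to 4 most changed called genes of each family, and for genes whose call turned under GC correction. Per-library values of other members were added after they were seen. Of the further list, the 8 most changed called genes are named. Alternatives were another pseudocount, other filters and scalings, limma-voom on recovered reads, a replicate term, each library left out, and the GC correction.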

Additional observations from a re-analysis of the deposited data

How the results depend on the processing

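Of the 35 calls among chaperone rows, 18 of 25 falls and 3 of 10 rises kept direction and call under all 13 alternatives. With the GC correction, 2515 rows of all genes were lower, 6 chaperone rows were higher, and 12 genes of the further list were higher. With the replicate block and GC correction together, 2132 rows of all genes were lower, 5 chaperone rows higher, and 9 genes of the further list higher and 11 lower. The GC-corrected calls of DNAJB1 (-0.13), BAG2 (0.24) and HSPD1 (-0.18) were lost with that block. Leaving out each library gave from 2168 to 3068 higher and from 2462 to 3763 lower rows among all genes, from 5 to 11 higher and from 22 to 25 lower chaperone rows, and from 14 to 18 higher and from 12 to 16 lower genes of the further list, with a lone library assumed to vary like the rest. The fewest calls came without shSCR replicate 2, apart from the higher genes of the further list, which numbered 14 there and also without shJARID2 replicate 1. Direction changed with the GC correction, with or without the block, for CDC37 (0.29), DNAJB2 (0.18), BAG1 (0.032), CCT2 (-0.039), DNAJA2 (-0.11), HSPB11 (-0.15), HSPD1 (-0.18) and the shorter HSPA14 locus (-0.062). Leaving out each library gave from -0.030 (without shJARID2 replicate 1) to 0.064 for CCT3, from -0.016 (without shJARID2 replicate 2) to 0.050 for HSPD1, which was also negative without shSCR replicate 2 (-0.011), and from -0.098 to 0.020 (without shJARID2 replicate 2) for HSPH1. The cause was not tested. The replicate numbers did not pair the libraries (correlation of deviations 0.029), and with the replicate block alone 3380 rows of all genes were higher and 3831 lower, and 10 chaperone rows higher and 24 lower, DNAJB2 being lost. Limma-voom on recovered reads called 12 chaperone rows higher and 25 lower. The values of HSPA1A, HSPE1, DNAJA1 and STUB1 rest on few reads, for a reason that was not tested.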
